A study of Mus musculus with 6 samples.

Results

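The S100 proteins, galectins and thymosins described here are 10 genes: *S100a1*, *S100a4*, *S100a6*, *S100a8*, *S100a10*, *S100a11*, *Lgals1*, *Lgals3*, *Tmsb4x* and *Tmsb10*. They were chosen by gene name, with earlier results of these data known, out of 56923 genes listed in the count table. Of those, 17212 had enough counts to be tested. The authors' table of results pairs names with identifiers for 7 of the 10 genes, and *S100a4*, *S100a8* and *Lgals3* were named through the GENCODE M39 annotation. The mRNA-Seq compared LVs of 3 WT mice with LVs of 3 *Lztr1* R409C/+ mice, all 12 weeks old, with 1 library per mouse. The mutants are heterozygous for a CRISPR/Cas9 knock-in that carries a Noonan syndrome substitution in *Lztr1*, a gene that takes part in the turnover of RAS proteins. By the study's methods, the lines were backcrossed to C57BL/6J, phenotypes were assessed in male mice, and hearts were perfused with ice-cold PBS. The knock-in is present in all cells of the animal, and the sample labels call the tissue heart and the genotypes wild-type and mutant. Each value below is therefore a mixture of all cell types in the tissue, in which more cells of a type and more RNA per cell cannot be told apart.

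S100 proteins are small calcium-binding proteins with EF-hand motifs that act by docking onto partner proteins, among them annexins, the ryanodine receptor and the sarcoplasmic reticulum calcium pump. Galectins are lectins that bind beta-galactosides on glycoproteins at the cell surface, in the matrix and on damaged lysosomes. Beta-thymosins are short peptides that bind actin monomers and keep them from polymerizing. In the heart, *S100a1* is known as a cardiomyocyte gene, *S100a8* as a gene of neutrophils and other myeloid cells, and *Lgals3* as a gene of macrophages.

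Each mouse had between 66130887 and 72641124 counts. Levels are given as CPM, counts scaled to a common library total, on which a gene with 3 counts stood at 0.0317 to 0.0541, a limit set by counting error alone. The share of mitochondrially encoded transcripts was 13.8% in WT mouse 3 and 45.4% in *Lztr1* R409C/+ mouse 1, against 29.7% to 37.3% in the other 4 mice. These 2 libraries stood apart from the others on the second principal component, and counts are given with and without them below. *Lztr1* itself had 22.2 to 24.2 CPM in WT and 23.9 to 27.9 CPM in mutant mice, and since a substitution need not change the transcript level, this does not check the labels. The cardiomyocyte genes *Myh6* and *Actc1* lay between 6328 and 17340 CPM in every mouse, as the labelled tissue requires.

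All 10 members had higher fitted levels in *Lztr1* R409C/+ mice, and none passed the adjusted threshold of 0.05 in edgeR's quasi-likelihood test. Over all genes tested, 6 were higher past that threshold, which is 0.0349%, and 1 was lower, which is 0.00581%. At an unadjusted p under 0.05, 6 of the 10 members were higher (*S100a6*, *S100a8*, *S100a10*, *Lgals3*, *Tmsb4x* and *Tmsb10*), against 5.77% of all genes, and 0 were lower, against 2.86%. The values of the 3 mutant mice lay above those of the 3 WT mice for 5 members (*S100a6*, *S100a8*, *S100a10*, *S100a11* and *Lgals3*), against 8.3% of all genes. The median log2 fold change of mutant over WT mice was 0.83 for the members and 0.01 for all genes tested. Because the members were chosen with earlier results of these data known, these comparisons with all genes do not test the group. Without WT mouse 3 and mutant mouse 1, a comparison added after the data were seen, 4 members were higher at an unadjusted p under 0.05, against 5.93% of all genes in that fit. Past the adjusted threshold, DESeq2 called 2 members higher (*S100a10* and *Tmsb10*) among 136 genes, edgeR's exact test 1 (*S100a10*) among 127, and the quasi-likelihood test without a filter 1 (*S100a10*) among 19.

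**Figure D1:**
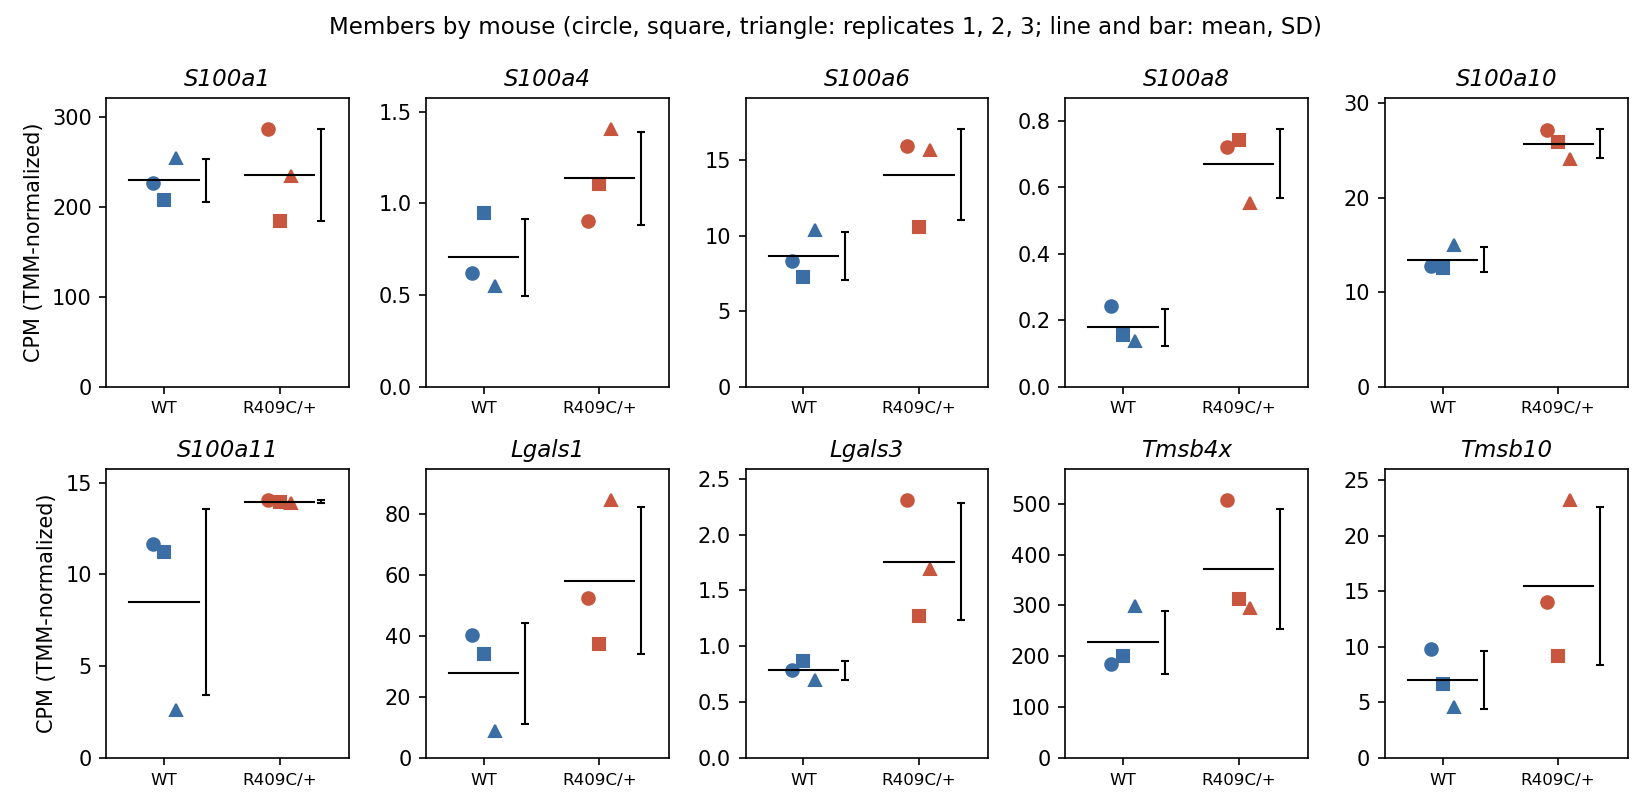
CPM of each of the 10 genes in each mouse, on linear axes from 0, with circles, squares and triangles for mice 1, 2 and 3 of each genotype, a line for the mean and a bar for the SD. For *S100a10* the mutant mice lie between 24.1 and 27.2 CPM and the WT mice between 12.5 and 14.9 CPM, whereas the groups overlap for *S100a1*.

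Levels of different genes were compared per kb of the canonical transcript. In WT mice, *Tmsb4x* had 319.6 ± 87.0 CPM per kb (SD, n = 3) and *S100a1* 278 ± 28.8 CPM per kb, and the mice of these 2 genes overlapped. *Lgals1* followed with 32.5 ± 19.4 CPM per kb, *S100a6* with 11.1 ± 2.02 and *Tmsb10* with 8.92 ± 3.33 CPM per kb, and each of the 3 overlapped with the next in the order apart from *Tmsb10*. *S100a10* (3.92 ± 0.388 CPM per kb) and *S100a11* (3.65 ± 2.18 CPM per kb) came next and overlapped. The lowest levels were those of *S100a4* at 1.40 ± 0.423, *Lgals3* at 0.57 ± 0.063 and *S100a8* at 0.362 ± 0.114 CPM per kb. The mice of *S100a11* and *S100a4* overlapped. The 10 genes thus spanned from abundant transcripts to transcripts with 10 to 66 counts per WT mouse. In mutant mice the order changed at 2 places: *Tmsb10* (19.6 CPM per kb) stood before *S100a6* (18.0 CPM per kb), and *S100a8* (1.36 CPM per kb) before *Lgals3* (1.28 CPM per kb), and the mice of both pairs overlapped.

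All 6 S100 members lie on chromosome 3 of GRCm39, where 15 S100 genes stand between 90416091 and 93474510 and 12 of them had a count. *S100a1*, *S100a4*, *S100a6* and *S100a8* lie between 90418340 and 90578128, and *S100a11* and *S100a10* between 93414382 and 93474510.

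*S100a10* (ENSMUSG00000041959.15, chr3:93462213-93474510, plus strand) encodes the light chain of the annexin A2 tetramer, which brings membrane proteins and plasminogen to the cell surface. WT mice 1, 2 and 3 had 12.8, 12.5 and 14.9 CPM, and *Lztr1* R409C/+ mice 1, 2 and 3 had 27.2, 25.9 and 24.1 CPM. Every mutant mouse lay above every WT mouse, and the spread within each group was small beside the distance between the groups. The means were 13.4 ± 1.33 CPM and 25.7 ± 1.54 CPM (SD, n = 3 each), a log2 fold change of 0.94 with a standard error of 0.16 and an adjusted p of 0.0905 in edgeR's quasi-likelihood test. It was the member with the smallest p, 6.79e-05 before adjustment. The difference passed the adjusted threshold with DESeq2's Wald test (adjusted p = 0.000203), with edgeR's exact test (adjusted p = 0.000363) and with edgeR's quasi-likelihood test without the filter on low counts (adjusted p = 0.0377). Over all alternatives its log2 fold change ranged from 0.75 to 1.02 and its adjusted p from 0.000203 to 0.976.

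*Anxa2*, which encodes the partner of S100a10 in that tetramer, was measured at 30.6, 27.6 and 32.1 CPM in WT and at 33.6, 34.1 and 40.2 CPM in mutant mice. The mutant mice were the higher ones, with a log2 fold change of 0.26 that did not pass the test (adjusted p = 0.676). The ratio of *S100a10* to *Anxa2*, both per kb, was 0.176, 0.192 and 0.197 in WT mice and 0.342, 0.321 and 0.254 in mutant mice. The 2 groups of ratios did not overlap, and the two-sided exact permutation test of 3 mice against 3 gave p = 0.1, the smallest p that this design allows.

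*S100a6* (ENSMUSG00000001025.9, chr3:90520140-90535843, plus strand) encodes a calcium sensor found in proliferating cells and fibroblasts. Its levels were 8.35, 7.24 and 10.3 CPM in WT and 15.9, 10.6 and 15.7 CPM in mutant mice. The groups did not overlap, although mutant mouse 2 and WT mouse 3 lay close together. The log2 fold change was 0.70 with a standard error of 0.21 (adjusted p = 0.367).

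*S100a8* (ENSMUSG00000056054.10, chr3:90567118-90578128, plus strand) encodes a subunit of calprotectin, a secreted complex of myeloid cells. It was rare, with 16, 10 and 13 counts in WT mice and 40, 53 and 40 counts in mutant mice. These correspond to 0.242, 0.155 and 0.137 CPM in WT and 0.722, 0.741 and 0.552 CPM in mutant mice. All mutant mice lay above all WT mice, and the log2 fold change of 1.91 was the largest among the members, with a standard error of 0.56 (adjusted p = 0.329).

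*S100a9*, which encodes the other subunit of calprotectin, was measured at 0.181, 0.761 and 0.295 CPM in WT and at 0.451, 0.392 and 0.386 CPM in mutant mice. Its groups overlapped, with the highest value in WT mouse 2, and its log2 fold change was -0.01 (adjusted p = 0.998). The ratio of *S100a8* to *S100a9*, both per kb, was 1.55, 0.237 and 0.54 in WT mice and 1.86, 2.20 and 1.66 in mutant mice, without overlap (p = 0.1, exact permutation test). At these counts, a few reads move the ratio of a single mouse.

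*S100a11* (ENSMUSG00000027907.5, chr3:93414382-93435293, plus strand) encodes a partner of annexin A1 that takes part in membrane repair. Its levels were 11.7, 11.2 and 2.64 CPM in WT and 14.1, 13.9 and 13.9 CPM in mutant mice. The groups did not overlap, and WT mouse 3 lay far below the other 5 mice. The log2 fold change was 0.72 with a standard error of 0.46 (adjusted p = 0.712), and it became 0.29 without WT mouse 3 (adjusted p = 0.713). Another 6 annotated genes share at least 90% of its coding bases over 100 bases or more, and they held 9.83% as many counts as *S100a11*, so its level is uncertain. With their counts added, the WT mice had 12.2, 12.2 and 3.81 CPM and the mutant mice 15.5, 15.4 and 14.6 CPM.

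*S100a4* (ENSMUSG00000001020.9, chr3:90511074-90513354, plus strand) encodes a partner of nonmuscle myosin that is used as a fibroblast and leukocyte marker. The WT mice had 0.62, 0.947 and 0.549 CPM and the mutant mice 0.902, 1.10 and 1.41 CPM. WT mouse 2 lay above mutant mouse 1, so the groups overlapped, and the log2 fold change was 0.69 with a standard error of 0.40 (adjusted p = 0.664). The annotated gene *Gm42674* overlaps *S100a4* on the same strand, is identical to it over 287 coding bases and had 0 counts. The level of *S100a4* thus depends on how shared reads were assigned.

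*S100a1* (ENSMUSG00000044080.10, chr3:90418340-90421848, minus strand) encodes the cardiomyocyte S100 protein that binds the ryanodine receptor and the calcium pump. Its levels were 227, 207 and 255 CPM in WT and 287, 185 and 234 CPM in mutant mice. Both the highest and the lowest mouse were mutants, and the log2 fold change, 0.03 with a standard error of 0.19 (adjusted p = 0.974), turned negative under 5 of 17 alternatives. It was the only member whose sign turned under any of them. *S100a1* lies over *S100a13* on the opposite strand, and the use of strand in counting is not given in the sources used here. Reads from bases that the 2 genes share therefore cannot be told apart. *S100a13* was the smaller of them, with 2785 counts over all mice against 98591 for *S100a1*.

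Within a mouse, *S100a10* per kb was 0.0141 ± 0.00051 times *S100a1* in WT and 0.0272 ± 0.00583 times *S100a1* in mutant mice (SD, n = 3 each, exact permutation test p = 0.1). The ratio of *S100a6* to *S100a1*, likewise per kb, was 0.0397 ± 0.00309 in WT and 0.0635 ± 0.00651 in mutant mice, and neither ratio overlapped between the groups. The ratio of *S100a11* to *Anxa1* overlapped.

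**Figure D2:**
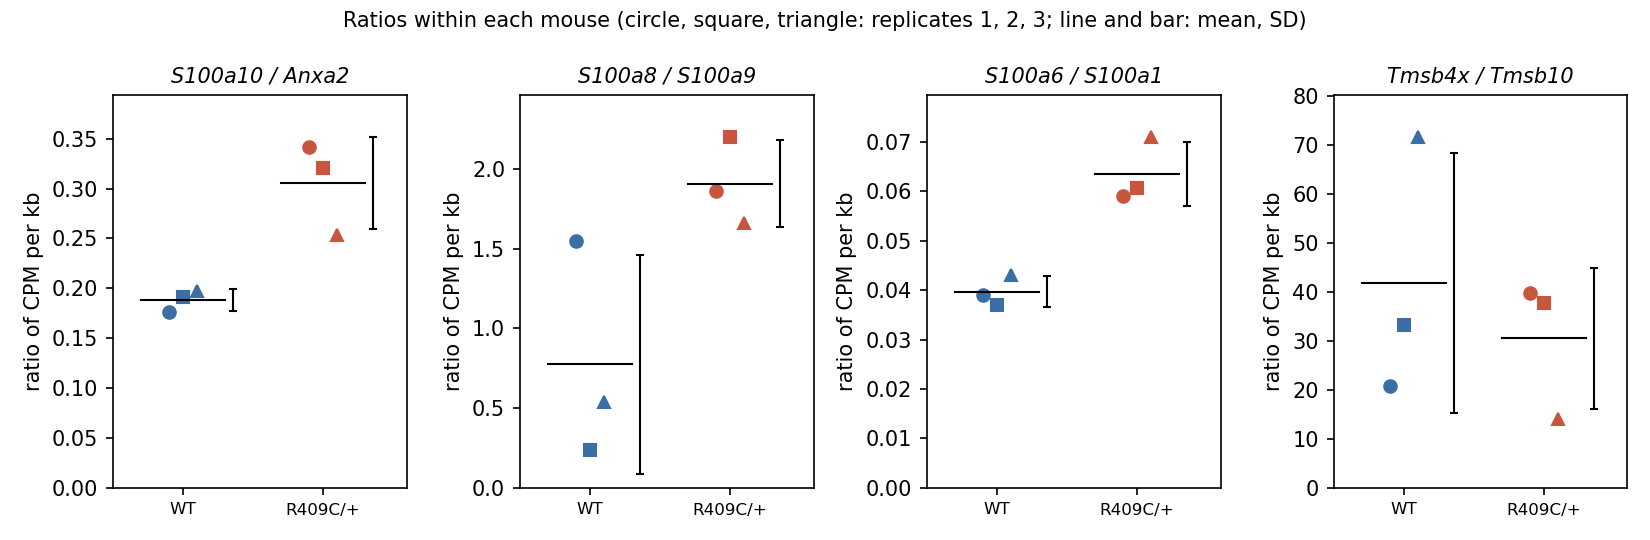
Ratios of CPM per kb within each mouse for 4 pairs of genes, on linear axes from 0, with circles, squares and triangles for mice 1, 2 and 3 of each genotype, a line for the mean and a bar for the SD. *S100a10* to *Anxa2* lies between 0.176 and 0.197 in WT and between 0.254 and 0.342 in mutant mice, while *Tmsb4x* to *Tmsb10* overlaps.

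Of 11 other S100 genes, 4 had enough counts to be tested, of which 3 were higher and 1 lower, with none at an unadjusted p under 0.05 in either direction. *S100a13* and *S100a16* had log2 fold changes of 0.60 and 0.33 and overlapping groups. Of 14 binding partners and receptors of S100 proteins, 13 were tested, 4 higher and 9 lower, and none had an unadjusted p under 0.05. In 3 of them the groups did not overlap, namely *Anxa2*, which was higher, and 2 calcium-handling partners of S100a1, which were lower, against 7.24% of all genes that were lower without overlap. *Atp2a2*, the sarcoplasmic reticulum calcium pump, had 13810, 14290 and 14790 CPM in WT and 8716, 11620 and 10810 CPM in mutant mice (log2 fold change -0.46, adjusted p = 0.63). *Ryr2*, the ryanodine receptor, had 1115, 1147 and 1026 CPM in WT and 692, 972 and 949 CPM in mutant mice (log2 fold change -0.33, adjusted p = 0.654). For both, the WT mice were the higher ones.

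*Lgals1* (ENSMUSG00000068220.7, chr15:78810875-78814670, plus strand) encodes galectin-1, a secreted lectin of fibroblasts, vessels and muscle. The WT mice had 40.3, 34.1 and 8.92 CPM and the mutant mice 52.6, 37.4 and 84.6 CPM. WT mouse 3 was far below the rest, mutant mouse 3 far above, and WT mouse 1 lay above mutant mouse 2, so the groups overlapped. The log2 fold change was 1.07 with a standard error of 0.61 (adjusted p = 0.692). Without WT mouse 3 it became 0.64 (standard error 0.29, adjusted p = 0.63), without mutant mouse 3 it became 0.70 (adjusted p = 0.831), and without WT mouse 1 it became 1.44.

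*Lgals3* (ENSMUSG00000050335.18, chr14:47605208-47623624, plus strand) encodes galectin-3, a lectin of macrophages that also marks damaged lysosomes. It had 0.787, 0.87 and 0.696 CPM in WT and 2.31, 1.27 and 1.70 CPM in mutant mice, from 52 to 66 counts per WT mouse and 91 to 128 counts per mutant mouse. The groups did not overlap, and the mutant mice spread more widely than the WT mice. The log2 fold change was 1.16 with a standard error of 0.35 (adjusted p = 0.365). The ratio of *Lgals1* to *Lgals3* overlapped between the groups.

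Of 8 other galectin genes, 4 were tested, 3 higher and 1 lower, with none at an unadjusted p under 0.05. Of 9 galectin binding partners, all were tested, 6 higher and 3 lower. Of the higher ones, 2 had an unadjusted p under 0.05, *Trem2* and the transferrin receptor gene *Tfrc*, against 5.77% of all genes. *Trem2*, a lipid-sensing receptor of macrophages, was measured at 0.545, 1.10 and 1.02 CPM in WT and at 2.47, 1.50 and 1.27 CPM in mutant mice, without overlap (log2 fold change 0.96, adjusted p = 0.538). *Itgb1*, the beta-1 integrin chain, lay lower in every mutant mouse than in any WT mouse (log2 fold change -0.22, adjusted p = 0.745).

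*Tmsb4x* (ENSMUSG00000049775.17, chrX:165990089-165992311, minus strand) encodes thymosin beta-4, the main actin monomer-binding peptide of many tissues. Its levels were 185, 199.9 and 299 CPM in WT and 507, 313 and 294 CPM in mutant mice. The groups overlapped, since mutant mouse 3 lay just below WT mouse 3. The log2 fold change, 0.70 with a standard error of 0.24 (adjusted p = 0.457), ranged from 0.40 without mutant mouse 1 to 0.95 without WT mouse 3.

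*Tmsb10* (ENSMUSG00000079523.9, chr6:72934330-72935737, minus strand) encodes thymosin beta-10, which binds actin monomers in the same way. Its levels were 9.82, 6.65 and 4.61 CPM in WT and 14.1, 9.16 and 23.2 CPM in mutant mice. WT mouse 1 lay above mutant mouse 2, so the groups overlapped, and mutant mouse 3 was the highest. The log2 fold change was 1.14 with a standard error of 0.34 (adjusted p = 0.372), and 0.73 without mutant mouse 3. DESeq2's Wald test gave an adjusted p of 0.0495, and over all alternatives the adjusted p ranged from 0.0495 to 0.709. The ratio of *Tmsb4x* to *Tmsb10* per kb, 20.8, 33.2 and 71.7 in WT and 39.8, 37.8 and 14.02 in mutant mice, overlapped.

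The coding sequences of the thymosins are shown because reads can be split between near-identical copies. They are from GRCm39 with the GENCODE M39 annotation, 132 bases each without the stop codon, and capitals mark the bases that differ from *Tmsb10* (for *Tmsb10*, from *Tmsb4x*).
Tmsb4x: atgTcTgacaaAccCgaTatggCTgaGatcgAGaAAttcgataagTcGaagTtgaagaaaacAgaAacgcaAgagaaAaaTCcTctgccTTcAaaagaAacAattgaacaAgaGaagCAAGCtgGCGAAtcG
Tmsb10: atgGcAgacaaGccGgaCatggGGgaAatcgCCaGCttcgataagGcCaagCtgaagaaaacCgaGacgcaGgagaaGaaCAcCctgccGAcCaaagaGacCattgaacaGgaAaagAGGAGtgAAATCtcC
Tmsb10b: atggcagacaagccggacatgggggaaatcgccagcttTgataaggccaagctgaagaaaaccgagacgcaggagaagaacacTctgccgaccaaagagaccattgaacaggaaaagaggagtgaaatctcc
*Tmsb4x* and *Tmsb10* differ at 40 of these bases (69.7% identity), and their longest identical run is 10 bases. *Tmsb10b* differs from *Tmsb10* at 2 bases (98.5% identity). *Tmsb10b* was measured at 0.605, 0.388 and 0.411 CPM in WT and at 0.541, 0.587 and 1.45 CPM in mutant mice, highest in the same mouse as *Tmsb10*. Of 8 such copies, 7 are listed in the count table, and their counts came to 10.6% of those of *Tmsb10*. With them added, *Tmsb10* had 11.1, 7.46 and 5.34 CPM in WT and 15.0, 10.1 and 25.5 CPM in mutant mice, and the groups still overlapped.

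Of 4 other beta-thymosin genes, 1 was tested, *Tmsb15l*, which was lower (log2 fold change -0.20, adjusted p = 0.981) and had counts in 3 of the 6 mice. A list of 19 genes held actin monomer regulators, thymosin partners and the filament-binding gene *Cotl1*. All were tested, 12 higher and 7 lower, and 2 of the higher ones had an unadjusted p under 0.05, against 5.77% of all genes. Only *Cotl1* passed the adjusted threshold, and the list was written with earlier results of these data known. *Cotl1*, coactosin-like protein, which binds actin filaments and is abundant in leukocytes, had 5.16, 5.65 and 4.74 CPM in WT and 11.2, 12.4 and 15.4 CPM in mutant mice, and rose by 1.33 on the log2 scale (adjusted p = 0.0411). Its call held in 7 of 17 alternatives and in 0 of the 6 that leave out 1 mouse, with adjusted p from 2.04e-06 to 0.251 and log2 fold changes from 1.19 to 1.42. *Actb*, cytoplasmic beta-actin, had 206, 214 and 185 CPM in WT and 215, 292 and 306 CPM in mutant mice, also without overlap (log2 fold change 0.43, adjusted p = 0.533). The values of *Actg1*, gamma-actin, were higher in every mutant mouse (log2 fold change 0.26, adjusted p = 0.706), and those of *Lims1*, an adaptor of the integrin-linked kinase complex, were lower in every mutant mouse (log2 fold change -0.20, adjusted p = 0.774). The ratio of *Tmsb4x* to *Actb* overlapped between the groups.

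**Figure D3:**
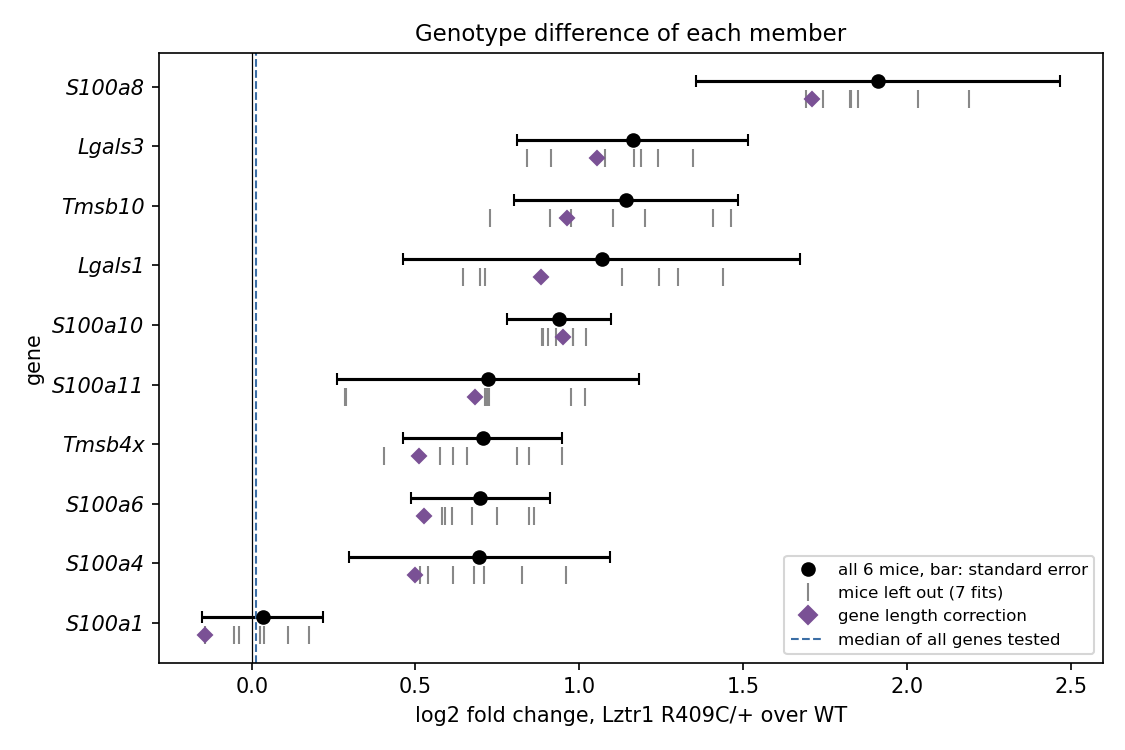
Log2 fold change of *Lztr1* R409C/+ over WT mice for the 10 genes in the quasi-likelihood fit of 6 mice (points, with the standard error as a bar), in 7 fits with mice left out (ticks) and with the length correction (diamonds), beside the median of all genes (dashed line). The points run from 0.03 for *S100a1* to 1.91 for *S100a8*, and only the ticks of *S100a1* lie on both sides of 0.

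The highest value of a member was in mutant mouse 1 for 6 members, in mutant mouse 3 for 3 and in mutant mouse 2 for 1, and the lowest was in WT mouse 3 for 6. The summed CPM of the 10 members was 496, 481 and 597 in WT mice and 922, 597 and 694 in mutant mice, so mutant mouse 2 and WT mouse 3 were almost level. Most of these sums came from *S100a1* and *Tmsb4x*.

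The marker genes of other cell types in the tissue were counted beside the members. For every marker list, the shares over all genes tested stand beside the counts. At an unadjusted p under 0.05, 5.77% of all genes were higher and 2.86% lower. Without overlap between the groups, 8.3% were higher and 7.24% lower. Of 15 macrophage markers, all were higher in *Lztr1* R409C/+ mice, 14 at an unadjusted p under 0.05 and 13 without overlap, and *C1qb* and *C1qc*, subunits of complement C1q, rose by 1.15 and 1.19 on the log2 scale (adjusted p = 0.0241 each). Both calls held in 8 of 17 alternatives and in 0 of the 6 that leave out 1 mouse, with log2 fold changes of at least 1.01 and 1.04 and adjusted p of up to 0.447 and 0.379. The summed CPM of the macrophage list was 256 to 303 in WT and 451 to 556 in mutant mice. The 2 with the highest mean CPM over all mice, not scaled for length, were *Lyz2*, lysozyme, with a mean of 99.8 ± 15.4 CPM in WT and 179 ± 60.3 CPM in mutant mice, and *Csf1r*, the receptor for macrophage colony-stimulating factor, with 37.7 ± 2.17 and 54.5 ± 3.35 CPM (SD, n = 3). The part of macrophage RNA in the differences of *Lgals3*, *S100a10*, *Tmsb4x* and the other members was not tested.

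Of 13 neutrophil markers, 8 had a count and 4 were tested, 3 of them higher, and 1 (*Mmp9*, a granule protease) had an unadjusted p under 0.05. *Mmp9* was measured at 1.03, 0.357 and 0.253 CPM in WT and 1.82, 0.867 and 1.34 CPM in mutant mice, with overlap (log2 fold change 1.30, adjusted p = 0.54). *Lcn2*, another granule gene, had 0.514, 1.10 and 0.939 CPM in WT and 1.43, 1.16 and 1.32 CPM in mutant mice, without overlap (log2 fold change 0.61, adjusted p = 0.697). The summed CPM of the list was 2.11 to 3.23 in WT and 3.89 to 5.07 in mutant mice, without overlap, and its members *Ly6g*, *Camp*, *Ngp*, *Elane* and *Mpo* were at 0 in all 6 mice. The part of neutrophil RNA in the difference of *S100a8* was not tested. Of 10 T, B and NK cell markers, 7 were tested and all 7 were higher, 1 at an unadjusted p under 0.05 (*Cd79a*) and 4 without overlap. The sums were 1.20 to 1.77 CPM in WT and 3.36 to 3.83 CPM in mutant mice. *Cd79a* had 10, 18 and 5 counts in WT and 35, 28 and 32 in mutant mice. *Nkg7*, also without overlap, had 0, 7 and 18 counts in WT and 13, 17 and 41 in mutant mice. Both passed the filter on low counts only through the mutant mice, so being tested and higher was partly set by the filter.

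Erythroid markers, 6 of 6 higher and 3 of them at an unadjusted p under 0.05 (*Hba-a1*, *Hba-a2* and *Alas2*), summed to 579, 748 and 1478 CPM in WT and 2625, 1042 and 1768 CPM in mutant mice, with overlap and with the highest sum in mutant mouse 1. Cardiomyocyte markers, 5 higher and 5 lower, summed to 44160 to 49110 CPM in WT and 35620 to 49530 CPM in mutant mice. Of 10 fibroblast markers, 6 were higher, 4 of them at an unadjusted p under 0.05 (*Lum*, *Dpt*, *Postn* and *Tcf21*) and 3 without overlap. The other 4 were lower, with log2 fold changes of -0.25 for *Col1a1*, -0.07 for *Col1a2*, -0.03 for *Col3a1* and -0.01 for *Gsn*. Of 9 endothelial markers, 7 were higher, 2 of them at an unadjusted p under 0.05 and without overlap (*Fabp4* and *Emcn*). The other 2 were lower, with log2 fold changes of -0.24 for *Kdr* and -0.13 for *Tie1*. The sums of both lists overlapped between the groups. Of 8 smooth muscle and pericyte markers, 4 were higher and 4 lower, and 2 of the lower ones, *Myh11* (log2 fold change -0.71) and *Tagln* (log2 fold change -0.65), had an unadjusted p under 0.05 and no overlap. The part of these cell types in the members' differences was not tested.

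**Figure D4:**
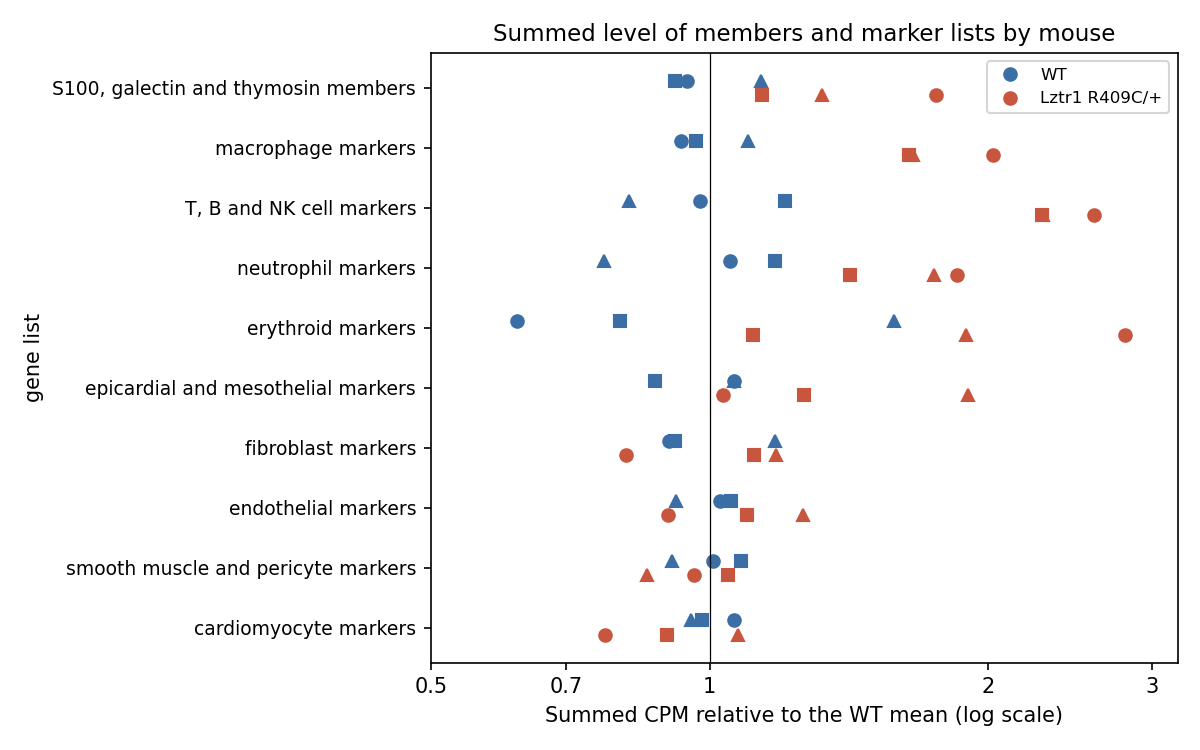
Summed CPM of the 10 members and of 9 marker lists in each mouse, divided by the WT mean (log scale), with circles, squares and triangles for mice 1, 2 and 3 of each genotype. The macrophage sums separate the genotypes, at 256 to 303 CPM in WT and 451 to 556 CPM in *Lztr1* R409C/+ mice, whereas the erythroid sums overlap.

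The difference between the genotypes also varied with transcript length. The canonical transcripts of 7 of the 10 members fell among the shortest genes tested, at 904 bases or less, the exceptions being *S100a10*, *S100a11* and *Lgals3*. Over the 1715 genes of that length the median log2 fold change was 0.22, with 9.56% higher and 0.991% lower at an unadjusted p under 0.05. The median deviation of these short genes from their mean over the mice was -0.07, -0.17 and 0.01 on the log2 scale in WT mice 1, 2 and 3 and 0.34, -0.03 and 0.10 in mutant mice 1, 2 and 3. The genotypes overlapped in this measure, and mutant mouse 1 stood highest. With a correction for length in the fit, the median of the members went from 0.83 to 0.78, and 6 of them were higher at an unadjusted p under 0.05, against 5.34% of all genes in that fit. *S100a10* then had a log2 fold change of 0.95 (adjusted p = 0.0899), *S100a11* 0.68 and *Lgals3* 1.05. All 7 short members had lower values than without the correction. *S100a8* went from 1.91 to 1.71, *Tmsb10* from 1.14 to 0.96, *Lgals1* from 1.07 to 0.88 and *Tmsb4x* from 0.70 to 0.51. *S100a6* went from 0.698 to 0.525, *S100a4* from 0.695 to 0.499 and *S100a1* from 0.03 to -0.14.

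The 120 bases before the annotated start of the canonical transcript were read from GRCm39 for the 2 S100 members with the smallest p and for *S100a11*, which has a motif match. They are shown 5′ to 3′ on the strand of the gene, at chr3:93462093-93462212, chr3:90576165-90576284 and chr3:93427557-93427676 in the order given, all plus strand, and capitals mark a motif match. For *S100a8* and *S100a11* this start lies inside the span of the gene given above, which begins with other transcripts.
S100a10: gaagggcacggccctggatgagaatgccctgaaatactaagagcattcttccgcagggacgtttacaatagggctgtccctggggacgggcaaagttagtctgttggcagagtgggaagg
S100a8: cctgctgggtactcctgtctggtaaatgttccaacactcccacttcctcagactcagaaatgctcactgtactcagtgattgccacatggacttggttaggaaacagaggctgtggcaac
S100a11: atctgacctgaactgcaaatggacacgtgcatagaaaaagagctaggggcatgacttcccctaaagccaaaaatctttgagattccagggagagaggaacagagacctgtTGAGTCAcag
Over the 250 bases before the start, both strands were searched for TGACTCA (the AP-1 element), CCGGAAGT (an ETS element) and the CArG box. TGACTCA was found for *S100a11* alone among the members, with the reverse strand match beginning 10 bases before the start, and in 4.03% of 21757 promoters of that length. CCGGAAGT and the CArG box were found for 0 members, and in 2.64% and 1.4% of promoters. These matches describe the letters in the window and say nothing of binding.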

How the data were processed

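Per the study's methods and the submitters' processing notes, the authors used Trim Galore for trimming, HISAT2 for alignment to GRCm39 and StringTie for assignment to genes. What they deposited are raw counts for each gene, as whole numbers. The annotation release, strand use and the way counts were taken from StringTie are not given in the sources used here. A deposited table of the authors' own edgeR comparison (fold changes, average log2 CPM, p-values and adjusted p-values) was used for gene names only.

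Counts were tested in R 4.3.3 with edgeR 4.0.16 (filterByExpr, TMM, robust quasi-likelihood test, two-sided, Benjamini-Hochberg adjustment over 17212 genes, threshold 0.05). CPM used TMM-scaled totals, and the standard error is the log2 fold change divided by the square root of F. Single values were also compared by a two-sided exact permutation test of 3 mice against 3, whose smallest p is 0.1. GENCODE M39 gave positions, canonical transcript lengths and names that the authors' table lacks, and 56236 of 56923 identifiers matched. Near-identical copies were found with blastn 2.17.0 (at least 90% identity over 100 coding bases). The labels give replicate numbers only, and no batch is given. The p-values of the quasi-likelihood test set the genotype difference against the variation between these samples.

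Alternatives were other normalizations, DESeq2 1.42.0, edgeR's exact test, other filters, removal of mitochondrially encoded genes, a replicate block, a length correction, and omission of each mouse. Some items of the upstream sequence search are not reported here. The members, lists and tests were chosen with earlier results of these data known. All members were named. Of the lists, *S100a9*, *Anxa2*, *Anxa1*, *Cotl1* and up to 4 genes with the smallest p among those without overlap were named, and of marker lists the 2 with the highest mean CPM. Some genes that this rule names have no value here, and *S100a13*, *S100a16*, *C1qb*, *C1qc*, *Tmsb10b*, *Tmsb15l*, *Tfrc*, the further marker genes and the genes of the closing section were named after their values were seen. Tested on simulated data, in which 200 of 17212 genes had a log2 change of 1, the fit called 75 of these and 6 unchanged genes.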

Additional observations from a re-analysis of the deposited data

How the results depend on the processing

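Of 170 results of the 10 members over 17 alternatives, 161 kept their direction and their side of the adjusted threshold, 4 passed it and 5 turned sign. Leaving out 1 mouse gave *S100a1* a range from -0.14 to 0.17. The sign changes were all of *S100a1*, whose log2 fold change was -0.17 with library size only, -0.14 with the length correction, -0.04 without WT mouse 2, -0.14 without mutant mouse 1 and -0.05 without both WT mouse 3 and mutant mouse 1. Members higher past the threshold numbered 0 in the quasi-likelihood test, 1 without a filter, 2 with DESeq2 and 1 with edgeR's exact test. Over all genes, 6 were higher and 1 lower, against 15 and 6 with library size only, 136 and 14 with DESeq2, and 127 and 13 with the exact test. Without a filter 19 were higher, with at least 10 counts in every mouse 0 were lower, and without WT mouse 3 and mutant mouse 1 0 were higher. Leaving out 1 mouse gave 1 to 3 higher and 1 to 2 lower. Library size only moved the median of all genes to -0.14 and that of the members to 0.73. The causes of these changes were not tested.

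With the replicate number as a block, 0 genes were higher past the threshold and 7 members were higher at an unadjusted p under 0.05, *S100a11* among them, against 5.25% of all genes in that fit. Deviations of mice that share a number correlated at -0.001, 0.022 and -0.057, and those of mice with different numbers at -0.05 to 0.048. These values show no pairing by number, but with 3 mice per group they cannot exclude one. Depth limits *S100a8*, *S100a4* and *Lgals3*, whose counts per mouse are low.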

Other observations

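Epicardial and mesothelial markers were another marker list counted beside the S100, galectin and thymosin genes. Of 7 such markers, 6 were tested, 4 higher and 2 lower. Of the higher ones, 3 had an unadjusted p under 0.05, *Upk3b*, *Lrrn4* and *Msln*, against 5.77% of all genes. *Lrrn4*, with 7, 8 and 12 counts in WT and 14, 37 and 79 in mutant mice, passed the filter on low counts only through the mutant mice. The same held for *Upk1b*, also higher. The summed CPM of the list was 4.88 to 5.93 in WT and 5.77 to 10.6 in mutant mice, with overlap. *Upk3b*, a uroplakin of mesothelium, was measured at 0.166, 0.28 and 0.717 CPM in WT and at 1.01, 1.86 and 2.40 CPM in *Lztr1* R409C/+ mice, and every mutant mouse lay above every WT mouse (log2 fold change 2.15, adjusted p = 0.251 in edgeR's quasi-likelihood test). *Msln*, mesothelin, had 0.197, 0.171 and 0.507 CPM in WT and 0.613, 0.419 and 1.63 CPM in mutant mice, with overlap (log2 fold change 1.58, adjusted p = 0.532). *Wt1*, a transcription factor of the epicardium, had 5.36, 4.02 and 3.98 CPM in WT and 3.59, 3.86 and 4.33 CPM in mutant mice (log2 fold change -0.18, adjusted p = 0.865). The highest values of *Upk3b* and *Msln* were both in mutant mouse 3, the mouse with the highest *Lgals1* and *Tmsb10*. The part of these cells in the values of *Lgals1* and *Tmsb10* was not tested.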
